A study of Mus musculus with 82 samples.

Results

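Cathepsins and legumain are proteases of the lysosome, the compartment in which cells break down material taken up from outside or delivered by autophagy. The 10 genes followed here, Ctsb, Ctsc, Ctsd, Ctsf, Ctsh, Ctsk, Ctsl, Ctss, Ctsz and Lgmn, were chosen by name, without regard to their case, from 78308 gene symbols listed in 1 or more of 8 tables of mouse sciatic nerve RNA sequencing. All 10 were listed in every table, and all 10 passed the filter on low counts in each of 20 comparisons. The tables held 82 libraries in 22 groups.

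Fig4 +/+ and Fig4 -/- nerves were sampled at postnatal day 12 (P12) and at P4, with 3 libraries in each of those 4 groups. At P21 there were 5 libraries named DhhCre and 5 named Mitf, and at P12 there were 3 named Egr2Cre and 3 named Mitf. An injury table set 4 libraries of uninjured nerve beside 4 taken 3 days post injury (3 dpi), and all 8 carried the name Mitf. A time course followed nerves labelled Wild type and Mutant at 3, 7 and 14 dpi, with 3 libraries in each group. Egr2Cre Mitf nerves (3 libraries) were set beside Mitf nerves (3 libraries), and a last table held Control (6), Mitf (6), Ndrg1 (5) and Mitf-Ndrg1 (5), in both cases without an age or an injury in the labels. Cre lines of these names drive the recombinase from the control regions of Dhh, active in Schwann cell precursors, and Egr2, active in myelinating Schwann cells. The labels gave no full genotype for the names Mitf, DhhCre, Egr2Cre and Mutant, so every direction below is by label. Nothing said that libraries came from separate animals, so the p-values measure the spread between libraries, which may be technical.

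Most cathepsins are made as inactive proenzymes, carry a mannose 6-phosphate tag that routes them from the Golgi to the lysosome, and are activated there by the acid pH and by each other. Cathepsin D is an aspartic protease, cathepsins B, L, S, K and F are cysteine endopeptidases, cathepsins C, H and Z trim peptides from their ends, and legumain cuts after asparagine and matures several of the others. In the nerve they are known from macrophages and from Schwann cells that digest their own myelin after injury, and cathepsin S and cathepsin K are also known outside the lysosome, in antigen processing and in the breakdown of matrix. Many lysosomal genes carry the E-box CACGTG in their promoters, the site read by the MiT/TFE factors, the family to which Mitf belongs.

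On build mm10, by GENCODE vM21, the members lay on chromosomes 2, 3, 7, 9, 12, 13, 14 and 19; Ctsk (chr3:95499256-95509362) and Ctss both lie on chromosome 3. Promoter windows from 250 bases before to 50 bases after the annotated start were given by RefSeq on build GRCm38.p6 for 8 of the 10 genes, in 9 windows, and not for Ctsb and Ctsh. Of these 8 genes, 4 had CACGTG, which reads the same on both strands, against 7.15% of all 32851 mouse windows of that length. The latter is a share of windows, not of genes. The matches are shown because the study concerns a factor of that family, each 5′ to 3′ on the strand of its gene, with the motif in capitals and up to 12 bases on either side. The Ctsd matches lay 245 and 98 bases before the start (chr7:142388055-142388077 and chr7:142387908-142387937, minus strand). Those of Ctsf (chr19:4855074-4855103, plus strand) and Ctsl (chr13:64370739-64370768, minus strand) lay 79 and 236 bases before it. That of the inner of the 2 Lgmn starts (chr12:102439124-102439153, minus strand) lay 49 bases before it. GENCODE vM21 places the upstream ends of Ctsd, Ctsl and Lgmn further out, at 142388038, 64370890 and 102439813. By that annotation the proximal Ctsd match and those of Ctsl and Lgmn lie inside the genes.
Ctsd, distal: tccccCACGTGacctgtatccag
Ctsd, proximal: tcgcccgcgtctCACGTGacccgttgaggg
Ctsf: caccccgtggtcCACGTGcctcgcgtaaat
Ctsl: ggcgttagaagcCACGTGctgatctaaatt
Lgmn: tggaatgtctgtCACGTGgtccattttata
The longer form GTCACGTG, read on either strand and overlapping CACGTG, was held by both Ctsd sites and the Lgmn site, against 2.25% of all windows. Ctss, the gene with the largest changes below, had no CACGTG in its window, and neither did Ctsc, Ctsk, Ctsz or the outer Lgmn start. The variant E-box CATGTG, searched on both strands, occurred once in the Ctss window, after the start, and once in that of the inner Lgmn start, against 14.2% of all windows. The 250 bases before the Ctss start (chr3:95526536-95526785, plus strand) are shown because this gene changed most; its CATGTG lies outside this stretch.
Ctss: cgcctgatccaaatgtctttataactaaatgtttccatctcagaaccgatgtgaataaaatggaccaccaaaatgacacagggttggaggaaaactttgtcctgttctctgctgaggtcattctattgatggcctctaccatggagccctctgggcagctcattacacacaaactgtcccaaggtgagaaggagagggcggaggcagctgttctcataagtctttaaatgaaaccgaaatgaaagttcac
A match or its absence describes these letters in these windows only.

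Libraries held between 15438783 and 34531474 estimated counts. Levels are given in CPM (counts-per-million units) of a library size scaled by TMM within each table, so that levels set across tables are a description only. The named alleles could be read in the data: Fig4 stood at 4.43 ± 1.42 CPM (SD, n = 3) in Fig4 -/- and 22.6 ± 4.06 in Fig4 +/+ at P12, and Ndrg1 at 181 ± 11.4 CPM in Ndrg1 (n = 5) and 1965 ± 95.5 in Control (n = 6). Mitf was lower in DhhCre than in Mitf at P21 (5.73 ± 1.05 against 19.6 ± 1.68 CPM, n = 5 each) and lower in Mitf than in Control in the table with Ndrg1 (12.3 ± 1.66 against 17.99 ± 2.19, n = 6 each). It stood at 8.44 ± 1.51 CPM in Egr2Cre and 14.0 ± 0.453 in Mitf at P12, and at 8.06 ± 1.60 in Egr2Cre Mitf and 10.96 ± 0.867 in its Mitf group (n = 3 each). In Mitf-Ndrg1 it stood at 15.1 ± 2.42 CPM and in Ndrg1 at 18.6 ± 3.22 (n = 5 each). Of these differences in Mitf only that at P21 passed edgeR's test (edgeR adjusted p 2.95e-05, and 0.228 or more in the others). In the time course its means lay between 3.41 and 7.41 CPM, so the name Mitf did not mark the lower Mitf level in every table. All 12 Schwann cell markers and all 18 macrophage markers had counts in every group, while skeletal muscle markers reached sums of 159700 CPM in a 14 dpi library. In whole nerve, fewer cells of a type and less RNA per cell cannot be told apart.

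Levels per kilobase, over the middle length of each gene's principal coding transcripts in GENCODE vM21, put Ctsd first in Control nerves, at 218 ± 20.1 CPM per kilobase (SD, n = 6), and Ctsb next at 130 ± 8.11. Ctsz (89.4 ± 5.94) and Ctsl (84.9 ± 4.55) followed and did not differ beyond their spread. Lgmn (33.5 ± 2.37), Ctsk (33.3 ± 3.56), Ctsc (33.3 ± 1.58) and Ctsf (29.7 ± 2.80) were likewise within their spread of each other. Ctsh, at 25.9 ± 3.24, was within its spread of Ctsf and under Lgmn, Ctsk and Ctsc. Ctss was the lowest at 13.1 ± 1.99 CPM per kilobase. Wild type nerves at 3 dpi had another order. Ctsd (1553 ± 37.2, n = 3) and Ctsb (762 ± 30.2) still led there, and Ctss came next at 496 ± 52.6, within its spread of Ctsl (472 ± 30.6). Ctsf was last at 9.48 ± 2.65 CPM per kilobase. Lgmn (356 ± 24.3) and Ctsz (343 ± 31.1) were within their spread of each other, as were Ctsc (89.2 ± 7.59) and Ctsh (88.0 ± 2.55), with Ctsk next at 42.4 ± 11.2. The order of Ctsd and Ctsb rests on the lengths used, 2127 and 4743 bases. In CPM Ctsb stood above Ctsd, at 617 ± 38.5 against 464 ± 42.8 in Control. In Wild type at 3 dpi these levels were 3614 ± 143 and 3303 ± 79.1 CPM.

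Across the 22 groups the span of mean levels separated the genes. Ctss (chr3:95526786-95556403), the cathepsin of antigen-presenting cells, had a mean of 672 ± 71.3 CPM in Wild type at 3 dpi, which was 39.7 times its lowest group mean. For Ctsd this ratio was 12.8, and for Lgmn 10.9. Ctsf and Ctsc spanned the least, with ratios of 3.87 and 3.73, and Ctsf ran the other way: its lowest mean was 18.6 ± 2.23 CPM in Mutant at 3 dpi and its highest 72.1 ± 7.04 CPM in DhhCre at P21. Together the 10 genes took 0.158% ± 0.00759 of all counts in Control nerves and 1.12% ± 0.0629 in Wild type nerves at 3 dpi.

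**Figure D1:**
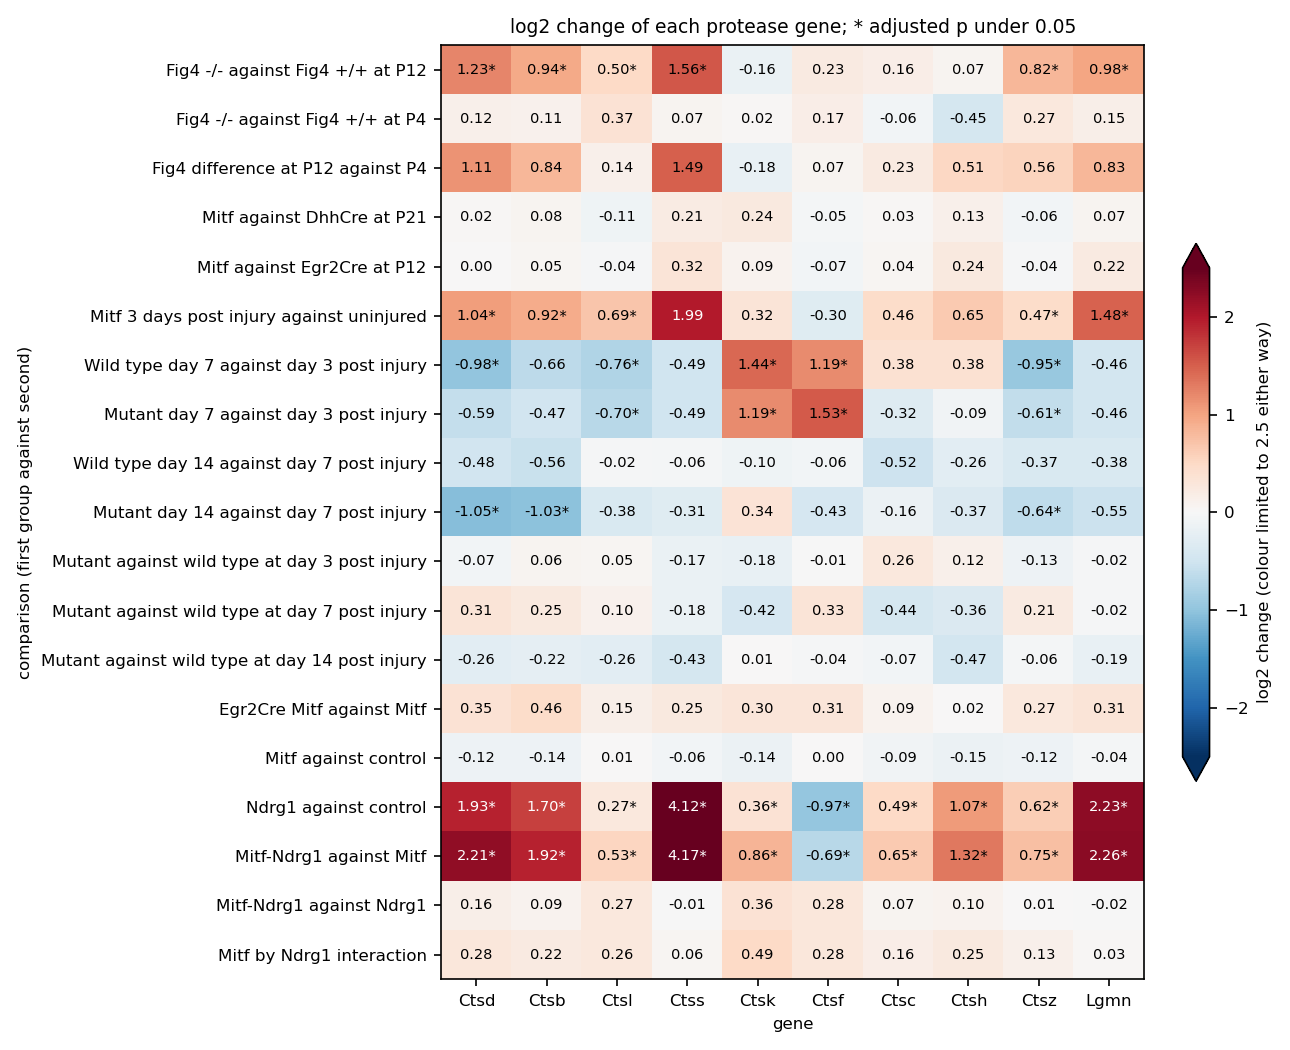
The log2 change of each gene (columns) in 19 comparisons or differences of comparisons (rows), as printed in each cell, with red for higher and blue for lower in the first-named group and a star where the edgeR adjusted p was under 0.05. The rows of Ndrg1 against control and Mitf-Ndrg1 against Mitf are starred in all 10 columns, with Ctsf lower and the other 9 genes higher, and the rows that compare Mitf labels alone hold no star.

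The nerves labelled Ndrg1, in which that gene's RNA was low, held the largest changes. Ndrg1 is a protein of myelinating Schwann cells, and its loss causes a demyelinating neuropathy. In Ndrg1 against Control nerves 9 of the 10 genes were higher and 1, Ctsf, was lower. This was a broad contrast, in which 60.5% of all 15910 genes tested passed and 30.8% passed as higher. The median log2 change of the 10 genes was 0.85, beside 0.02 over all genes, and the members ran from -0.97 to 4.12.

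Ctss stood apart in size. Its 6 Control libraries ran from 13.9 CPM through a median of 17.96 to 21.3, and its 5 Ndrg1 libraries held 297, 359, 278, 296 and 302. The groups were far from overlapping. In this contrast 20.6% of all genes were higher without overlap and 21.2% lower. The log2 change was 4.12 (SE 0.113), a 17.3-fold higher level, with an edgeR adjusted p of 7.4e-19, and Ctss ranked 3 by p among the genes tested. Lgmn (chr12:102394084-102439813), the asparagine-specific protease that processes other cathepsins, ranked 7. Its Control libraries ran from 57.4 CPM through 60.8 to 68.8, and the Ndrg1 libraries held 275, 305, 284, 296 and 283. Every Ndrg1 library was above every Control library, and the log2 change was 2.23 (SE 0.0681, edgeR adjusted p 4.38e-18).

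Cathepsin D (Ctsd, chr7:142375911-142388038), the main aspartic protease of lysosomes, ran from 417 CPM through 456 to 543 in Control and held 1807, 1828, 1394, 2021 and 1788 CPM in Ndrg1. Replicate 3 was the lowest of the Ndrg1 libraries but still far above Control. The log2 change was 1.93 (SE 0.0881, edgeR adjusted p 7.64e-15). Cathepsin B (Ctsb, chr14:63122462-63145923), an endopeptidase that also trims dipeptides, ran from 571 CPM through 609 to 687 in Control and held 2055, 2053, 1805, 2200 and 1918 in Ndrg1. These groups too did not overlap, with a log2 change of 1.701 (SE 0.0725, edgeR adjusted p 2.36e-15). Ctsd shares its strand and part of its span with the gene Gm49369, Ctsl with the pseudogene Gm49230 and Ctss with the pseudogene Hmgb1-ps5. Their estimated counts were whole numbers in 0, 1 and 39 of 82 libraries, and those of Ctss lay within 0.05 of a whole number in all 82. Reads may have been divided with these or other genes, and the levels are uncertain to that extent.

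Among the peptidases that work from an end, all 3 were higher. Ctsh, an aminopeptidase, went from 41.8 ± 5.24 CPM (SD, n = 6) to 87.7 ± 12.5 (n = 5), a log2 change of 1.07 (SE 0.0976, edgeR adjusted p 1.38e-09). Ctsz, a carboxypeptidase, rose by 0.62 (SE 0.0838), and Ctsc, dipeptidyl peptidase I, which activates the serine proteases of immune cell granules, by 0.49 (SE 0.0725). Ctsc held 145 CPM in replicate 3 of Ndrg1 and between 107 and 113 in the other 4 libraries. Of the remaining endopeptidases, Ctsk, the collagen-cutting cathepsin known from osteoclasts, rose by 0.365 (SE 0.095, edgeR adjusted p 0.00188), and its Ndrg1 libraries of 73.7, 72.9, 51.0, 73.7 and 52.4 CPM overlapped the Control range of 44.9 to 59.1. Ctsl rose by 0.27 (SE 0.0762, edgeR adjusted p 0.00388), without overlap.

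Ctsf (chr19:4855130-4860918), a cathepsin with a long cystatin-like propeptide, fell. Control libraries ran from 54.4 CPM through 57.7 to 69.4, and Ndrg1 libraries held 32.6, 31.2, 20.7, 34.2 and 31.0. All 5 were below all 6 Control values. Its log2 change was -0.97 (SE 0.104, edgeR adjusted p 2.09e-08).

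**Figure D2:**
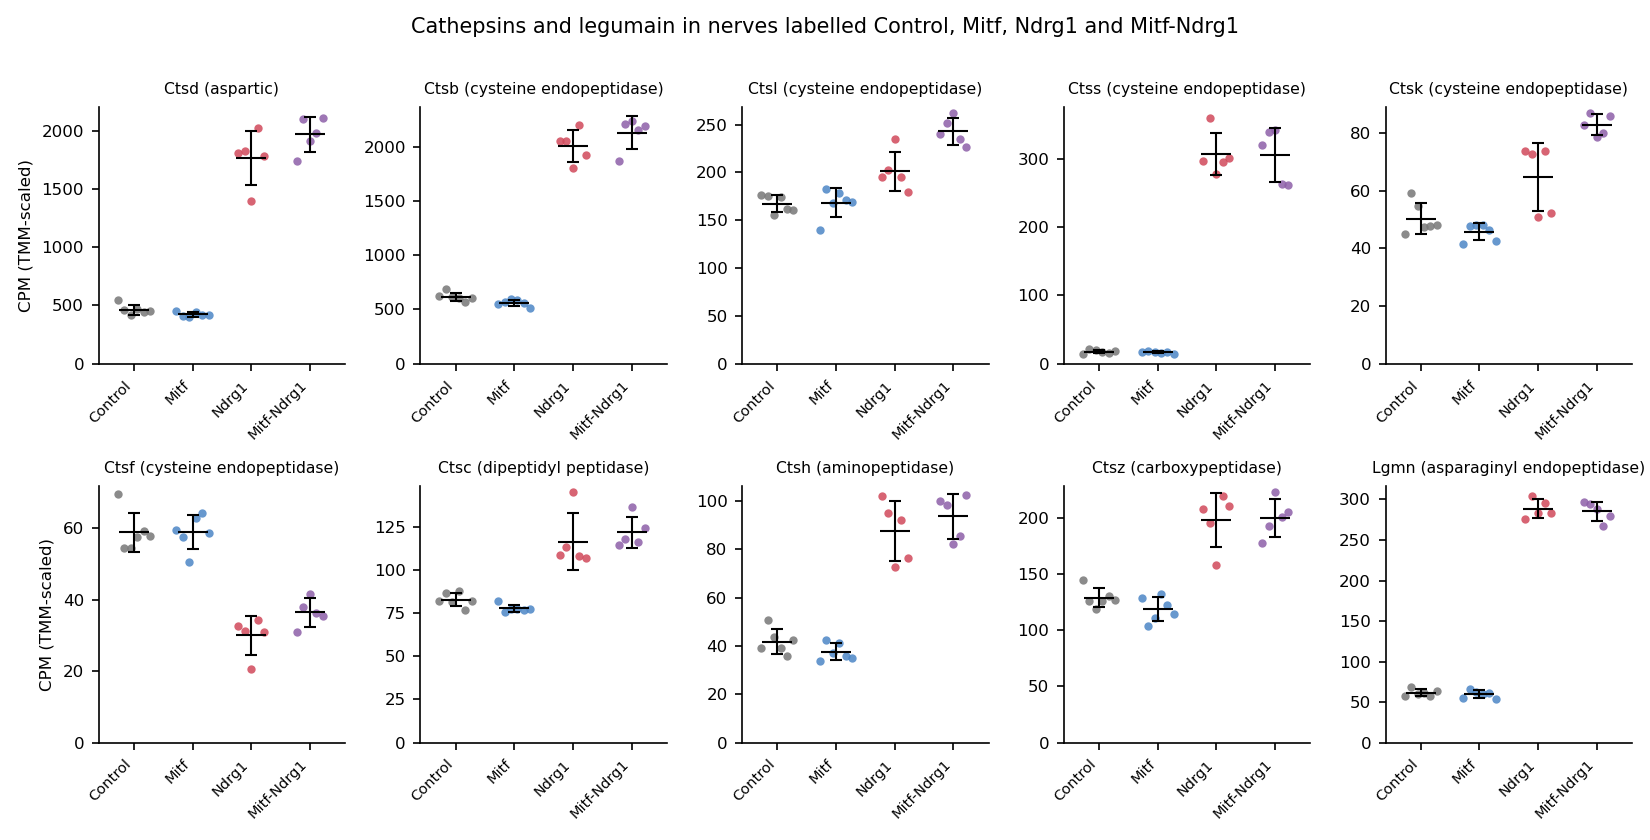
CPM of each gene (vertical axes from 0) in each library (points) of the groups Control, Mitf, Ndrg1 and Mitf-Ndrg1, with the mean as a long bar and the SD as whiskers. Ctss lies between 13.9 and 21.3 CPM in Control and between 278 and 359 in Ndrg1, while Ctsf is the only panel in which the 2 groups with the Ndrg1 label sit lower.

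The second contrast with the Ndrg1 label, Mitf-Ndrg1 against Mitf, shares no library with the first, although both share 1 estimate of the spread. Again 9 genes were higher and Ctsf lower, where 57.6% of all genes passed. Ctss rose by 4.17 (SE 0.113, edgeR adjusted p 5.01e-19), Lgmn by 2.26 (SE 0.0682), Ctsd by 2.21 (SE 0.0888) and Ctsb by 1.92 (SE 0.0728). Mitf-Ndrg1 libraries held 320, 339, 342, 263 and 262 CPM of Ctss, and Mitf libraries from 14.6 through 17.5 to 18.6. Ctsk rose by 0.86 (SE 0.0949) and Ctsl by 0.53 (SE 0.0761). For both genes no Mitf-Ndrg1 library reached down to the Mitf range, where 20.6% of all genes were higher without overlap. Ctsf fell by 0.69 (SE 0.103, edgeR adjusted p 3.62e-06).

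Macrophage markers moved with these genes. In Ndrg1 against Control 16 of 18 were higher and 1 was lower, and their summed level went from between 639 and 835 CPM to between 4172 and 5269 CPM. Of the 12 Schwann cell markers 10 were lower and 2 higher, and their sum went from between 154100 and 183500 CPM to between 46400 and 59710. Endothelial markers were lower (6 of 6), fibroblast markers were lower in 4 and higher in 2 of 9, and both neutrophil markers tested, of 8 listed, were higher. In Mitf-Ndrg1 against Mitf 16 of 18 macrophage markers were again higher and 1 lower, 9 Schwann cell and 5 endothelial markers were lower and 2 Schwann cell markers higher. There 4 fibroblast markers were higher and 2 lower, and both neutrophil and all 5 adipocyte markers were higher. The part of any of these cell types in the changes of the proteases was not tested.

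The other genes of the pathway did not all go up with the proteases. Among 14 further cathepsin genes, 4 passed the count filter in this table and all 4 were higher in Ndrg1 than in Control: Ctse by 2.79, Ctsw by 2.78, Ctsa by 0.29 and Ctso by 0.22 on the log2 scale. Of 11 cathepsin inhibitors, 6 were tested and 5 were higher, among them Ctla2b (2.87) and Ctla2a (1.83), which inhibit cathepsin L-like enzymes, and the cystatin Cstb (1.77). Of 13 genes that deliver hydrolases to the lysosome, 6 were lower and 2 higher. Sort1, the sorting receptor sortilin, fell by 1.56, Gnptg, a subunit of the enzyme that makes the mannose 6-phosphate tag, by 0.72, and the tag's receptor M6pr by 0.43. Grn, progranulin, a binding partner of cathepsin D, rose by 1.05. Of the 4 MiT/TFE factors only Tfec passed, with a rise of 3.64, while the values for Mitf, Tfeb and Tfe3 were 0.05, -0.24 and -0.14 (edgeR adjusted p 0.753, 0.166 and 0.193). These lists, like the marker lists, were chosen with earlier results of these data known.

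The label Mitf on its own did not come with called changes in any of the 10 genes. In Mitf against Control 0 of 10 passed edgeR's test, 0 had an unadjusted p under 0.05 and DESeq2 called 0, in a comparison where 0.00629% of all genes passed. Log2 changes lay between -0.15 and 0.01, and 8 of 10 were negative. The widest 95% interval here was that of Ctss, from -0.26 to 0.13. Ctsb held 571 to 687 CPM in Control and 513 to 592 in Mitf, so the groups overlapped.

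Mitf-Ndrg1 against Ndrg1 asked whether the Mitf label changed these genes where the Ndrg1 label was present. Here too 0 of 10 passed edgeR's test, where 1.47% of all genes did. An unadjusted p under 0.05 was held by 3 of the 10 and by 2797 of all 15910 genes. DESeq2 called 2 of the 10, Ctsk and Ctsl, and 750 of all genes. Ctsk held 82.9, 86.9, 78.6, 80.2 and 86.1 CPM in Mitf-Ndrg1, all above the highest Ndrg1 library at 73.7. Of all genes 1.66% were higher without overlap here. Its log2 change was 0.36 (SE 0.0992, 95% interval 0.16 to 0.55, edgeR adjusted p 0.0677, DESeq2 adjusted p 0.0262). Ctsl held 240, 252, 263, 235 and 226 CPM in Mitf-Ndrg1 and 195, 202, 235, 195 and 179 in Ndrg1. Its groups overlapped in 1 Ndrg1 library, replicate 3, and its log2 change was 0.27 (SE 0.0798, edgeR adjusted p 0.0809, DESeq2 adjusted p 0.0219). Without Ndrg1 replicate 1 edgeR called Ctsk, and without Ndrg1 replicate 3 it called Ctsl. Ctss, Lgmn and Ctsz had log2 changes of -0.01 (95% interval -0.21 to 0.20), -0.02 (-0.15 to 0.12) and 0.01 (-0.16 to 0.18). Of the cell type markers only endothelial ones passed, 4 of 6, all higher in Mitf-Ndrg1. Median muscle marker sums were 4060 CPM in Mitf-Ndrg1 and 29.75 in Ndrg1, and median adipocyte marker sums 388.7 and 81.49. The part of these cell types in the protease values was not tested.

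The interaction compared the Ndrg1 change with and without the Mitf label, and edgeR called 0 of 10 genes, where 0.39% of all genes passed. For 4 of the 10, and for 2213 of all genes, the unadjusted p was under 0.05. DESeq2 called 1 of the 10, Ctsk, and 387 of all genes. The Ctsk change was larger with the Mitf label by 0.49 (SE 0.135, edgeR adjusted p 0.0904, DESeq2 adjusted p 0.0348). All 10 interaction values were positive, from 0.03 for Lgmn to 0.49 for Ctsk.

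In Fig4 nerves the proteases changed at P12. Fig4 is a phosphoinositide phosphatase of the late endosome and lysosome, and its loss leads to a degeneration of neurons and to swollen lysosomes. At P12, 6 of the 10 genes were higher in Fig4 -/- and 0 were lower, where 3.03% of all 14338 genes passed, 1.87% as higher and 1.16% as lower. Ctss was again first by size, ahead of Ctsd, Lgmn, Ctsb, Ctsz and Ctsl. The median log2 change of the 10 genes was 0.66, beside 6.22e-05 over all genes.

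Ctss held 30.3, 35.4 and 30.7 CPM in Fig4 +/+ and 108, 75.55 and 99.8 in Fig4 -/- at P12. No Fig4 -/- library came near the Fig4 +/+ range, and the log2 change was 1.56 (SE 0.163, edgeR adjusted p 0.000302). Ctsd held 273, 275 and 225 CPM in Fig4 +/+ and 662, 638 and 515 in Fig4 -/-, a log2 change of 1.23 (SE 0.137, edgeR adjusted p 0.000531). Both genes more than doubled. Lgmn went from 80.3, 88.6 and 70.25 CPM to 178, 132 and 160.5, a log2 change of 0.98 (SE 0.143, edgeR adjusted p 0.0038). Ctsb went from 482, 556 and 421 CPM to 914, 844 and 1042, a log2 change of 0.94 (SE 0.138, edgeR adjusted p 0.00381). Neither gene had overlapping groups, where 11.9% of all genes were higher without overlap.

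Ctsz, the carboxypeptidase, held 58.0, 53.1 and 53.0 CPM in Fig4 +/+ and 101, 98.9 and 90.9 in Fig4 -/- (log2 change 0.82, SE 0.124, edgeR adjusted p 0.00433). Ctsl held 280, 262 and 262 CPM in Fig4 +/+ and 388, 359 and 388 in Fig4 -/-. Its groups did not overlap and its log2 change was 0.50 (SE 0.108, edgeR adjusted p 0.0311), but the call was lost without any 1 of 5 of the 6 libraries, the exception being Fig4 -/- replicate 3 (adjusted p 0.0714 to 0.179), and with the level of muscle markers as a covariate (adjusted p 0.306). The Ctsz call was lost with that covariate too (adjusted p 0.0755). Ctsf, Ctsc and Ctsh had log2 changes of 0.23, 0.16 and 0.07, and Ctsk, the matrix cathepsin, of -0.16, and none of these 4 passed the test (edgeR adjusted p 0.47 to 0.907). Of the 18 macrophage markers 10 were higher and 0 lower in Fig4 -/- at P12, with a summed level of 1072 to 1423 CPM against 624 to 766, and 1 Schwann cell marker was higher and 1 lower. Of the other lists 1 endothelial, 1 fibroblast and 1 muscle marker were lower. Their part in the protease changes was not tested.

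Fig4 -/- nerves at P12 also had more RNA of the inhibitors Cstb (0.99) and Cst3, cystatin C (0.67), of Ctsa, the protective carboxypeptidase of the lysosome (0.64), of Grn (0.92) and of Psap, prosaposin (0.52), all on the log2 scale. These were 2 of 5 inhibitors tested, 1 of 3 further cathepsins and 2 of 13 delivery genes. None of the 4 MiT/TFE factors passed.

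At P4 edgeR called 0 of the 10 genes, 0 had an unadjusted p under 0.05 and DESeq2 called 0, where 0.00672% of 14888 genes passed. Ctss held 42.3, 44.2 and 29.8 CPM in Fig4 +/+ and 34.3, 40.4 and 47.4 in Fig4 -/-, so that the groups overlapped fully (log2 change 0.07, 95% interval -0.325 to 0.47). Ctsd held 561, 761 and 684 CPM in Fig4 +/+ and 744, 705 and 732 in Fig4 -/- (log2 change 0.12, 95% interval -0.23 to 0.47). Of the 10 genes only Ctsz had groups that did not overlap, with 180, 176 and 185 CPM in Fig4 -/- above 124, 168 and 157 (log2 change 0.27, SE 0.155), where 2.4% of all genes were higher without overlap.

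The difference between the ages was itself tested, in 1 fit over both tables. None of the 10 genes passed edgeR's test (23 genes of 13765, or 0.167%, did, 0.153% higher and 0.0145% lower). An unadjusted p under 0.05 was held by 5 of the 10 and by 1003 of all genes. The genotype change was larger at P12 by 1.49 for Ctss (SE 0.267, edgeR adjusted p 0.0593, 0.000246 to 0.659 over the alternatives) and by 1.11 for Ctsd (SE 0.234, edgeR adjusted p 0.139). DESeq2 called 3 of the 10 genes, Ctsb, Ctsd and Ctss, and 144 of all genes. The calls of the 10 under other settings ranged from 0 to 3. Muscle RNA differed widely between P4 libraries, with marker sums of 148 to 13770 CPM in Fig4 +/+ and 251.1 to 11220 CPM in Fig4 -/-. Without the 2 libraries rich in muscle RNA, replicate 1 of Fig4 +/+ and replicate 3 of Fig4 -/-, edgeR called Ctsd and Ctss (adjusted p 0.0143 and 0.032), and without the first of them alone it called Ctsd (adjusted p 0.0359).

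**Figure D3:**
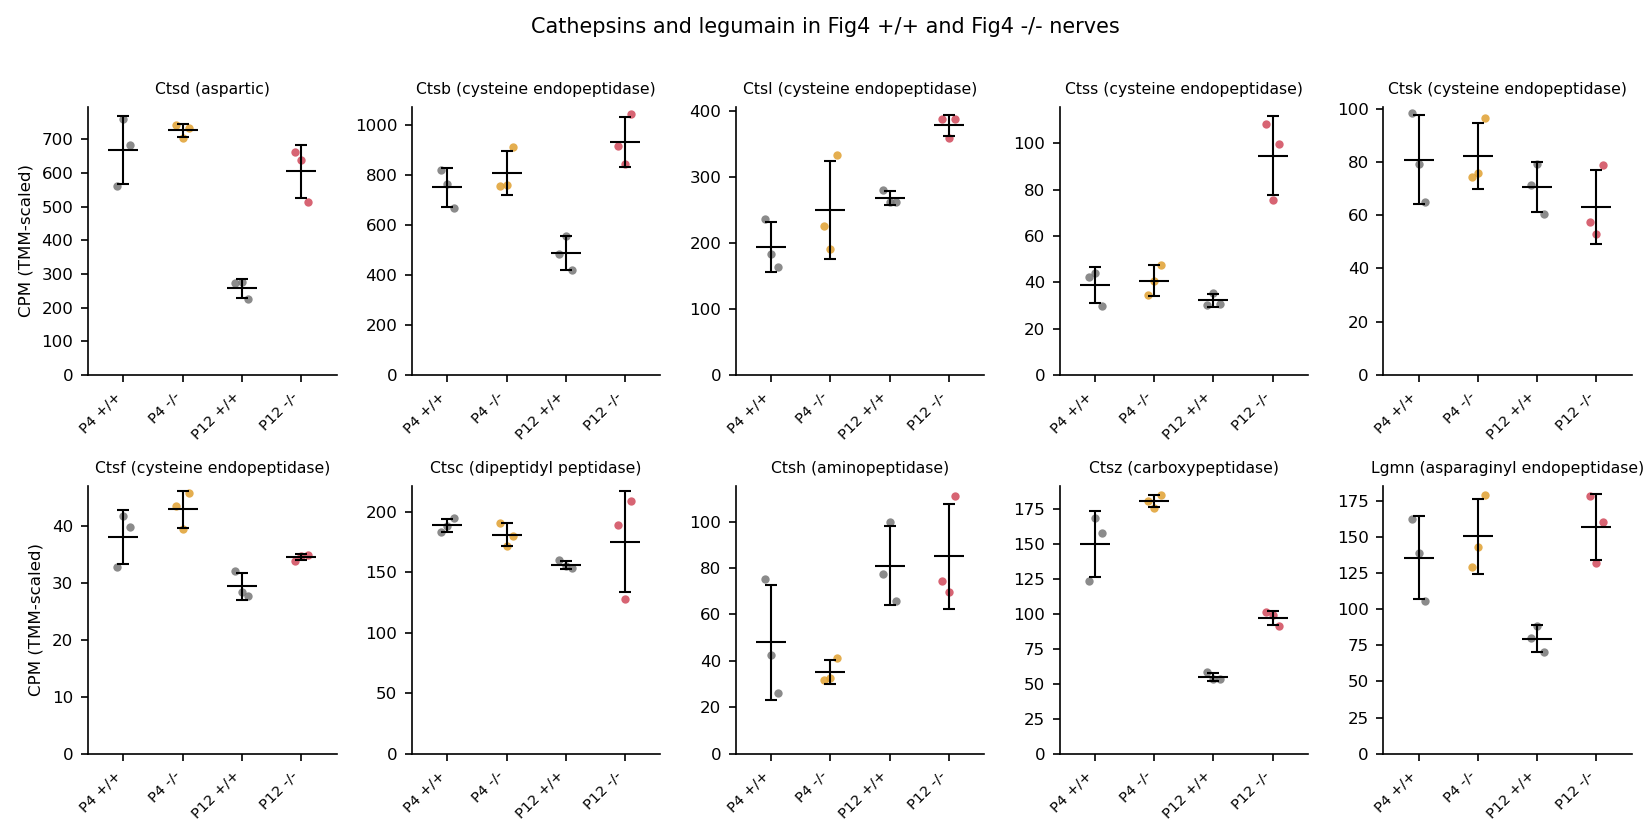
CPM of each gene (vertical axes from 0) in each library (points) of Fig4 +/+ and Fig4 -/- nerves at P4 and P12, with the mean as a long bar and the SD as whiskers; the ages come from separate tables. At P12 Ctss lies between 75.55 and 108 CPM in Fig4 -/- and between 30.3 and 35.4 in Fig4 +/+, while at P4 the groups overlap.

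Part of the set was higher 3 days after nerve injury. All 8 libraries of this table carried the name Mitf, and 5 of the 10 genes were higher and 0 lower at 3 dpi than in uninjured nerve, where 22.1% of 15245 genes passed, 11.7% as higher and 10.4% as lower. Lgmn held 84.4, 71.6, 115 and 120 CPM in uninjured nerve and 180, 379, 266 and 264.5 at 3 dpi. Each injured library exceeded each uninjured one, and the log2 change was 1.48 (SE 0.241, edgeR adjusted p 0.00411). Such a lack of overlap, with higher values after injury, was seen in 14.4% of all genes. Ctsd held 522, 444, 620 and 579 CPM in uninjured nerve and 1036, 1320, 1030 and 1072 at 3 dpi, again without overlap (log2 change 1.04, SE 0.164, edgeR adjusted p 0.00363). Ctsb went from 729, 507, 805 and 757 CPM to 1119, 1531, 1277 and 1371 (log2 change 0.92, SE 0.186, edgeR adjusted p 0.0087).

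Ctsl and Ctsz were called at 0.69 (SE 0.196, edgeR adjusted p 0.0317) and 0.47 (SE 0.135, edgeR adjusted p 0.0332). Both calls depended on the libraries: without uninjured replicate 1, 2 or 3 or 3 dpi replicate 2 or 4 the count was 3 genes, Ctsb, Ctsd and Lgmn, and so it was with the replicate number as a block. Ctss had the largest log2 change of the 10 genes, 1.99, but did not pass (SE 0.624, edgeR adjusted p 0.0588, DESeq2 adjusted p 0.00826). It held 44.2, 13.3, 43.3 and 74.3 CPM in uninjured nerve and 57.5, 234, 134.5 and 268 at 3 dpi, so that 1 injured library, replicate 1, lay within the uninjured range. That library was the lowest of its group in 7 of the 10 genes, Ctsl and Ctsd among the exceptions, and the highest in Ctsf, at 76.9 CPM against 29.1, 45.5 and 43.9. Its summed macrophage markers were 1133 CPM, against 2226 to 3011 CPM in the other 3 injured libraries and 634 to 1534 in the uninjured ones. Without it 9 genes were called, 8 higher and Ctsf lower.

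Of the macrophage markers 5 of 18 were higher and 0 lower at 3 dpi, 4 Schwann cell markers were lower and 1 higher, and 2 of 3 neutrophil markers tested were higher. Their part in the protease changes was not tested. Among the inhibitors Cstb rose by 1.76 and Ctla2a by 3.05 on the log2 scale, and of the delivery genes Grn rose by 0.88 and Psap by 0.60 while Sort1 fell by 0.85. None of the 3 other cathepsins tested passed.

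**Figure D4:**
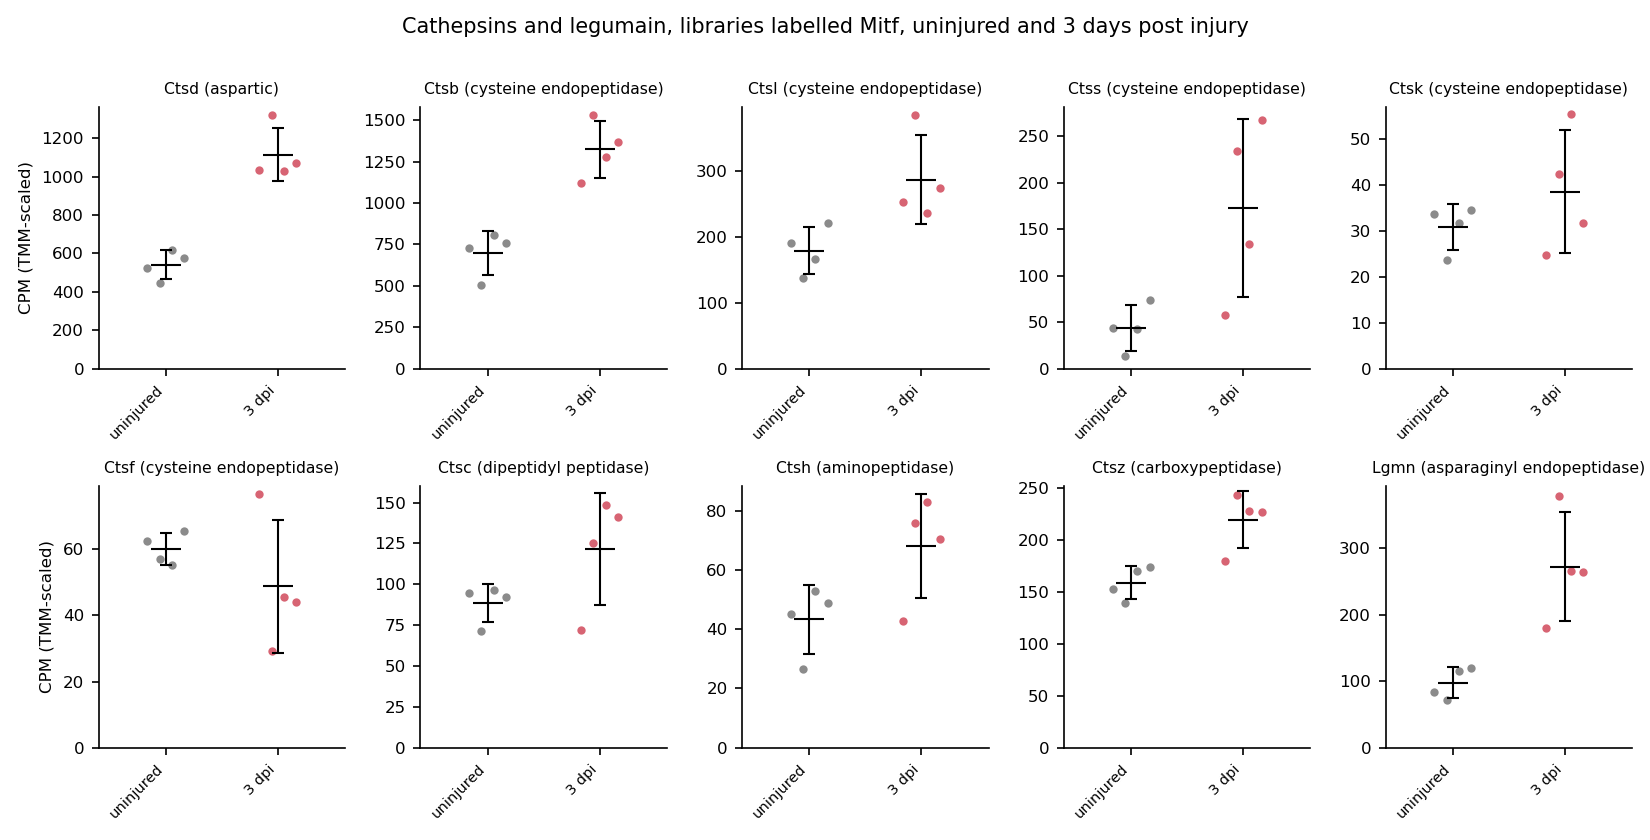
CPM of each gene (vertical axes from 0) in each of 4 uninjured and 4 injured (3 dpi) libraries, all named Mitf, with the mean as a long bar and the SD as whiskers. Lgmn lies between 71.6 and 120 CPM in uninjured and between 180 and 379 in injured nerve, and the lowest injured Ctss library, at 57.5 CPM, sits among the uninjured ones.

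Between 3 and 7 dpi of the time course Ctsk and Ctsf rose, in Wild type and in Mutant nerves, while Ctsl and Ctsz fell in both and Ctsd was called lower in Wild type. In Wild type 2 genes were higher and 3 lower, where 39.1% of 15852 genes passed (19.4% higher, 19.6% lower). In Mutant 2 were higher and 2 lower, where 33.4% passed (16.2% higher, 17.2% lower). Both shares are near those over all genes, so the counts themselves are not a result about the proteases. All comparisons of this table share 1 estimate of the spread, and those with 7 dpi share the same libraries.

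Ctsk held 48.9, 82.3 and 61.2 CPM in Wild type at 3 dpi and 212, 187 and 122 at 7 dpi. The days did not overlap, and the log2 change was 1.44 (SE 0.22, edgeR adjusted p 0.00015). Between these days 27.9% of all genes were higher without overlap in Wild type and 29.4% in Mutant. In Mutant it went from 63.6, 49.9 and 56.8 CPM to 156, 116 and 116 (log2 change 1.19, SE 0.219, edgeR adjusted p 0.000828). Ctsf held 14.4, 24.6 and 17.3 CPM in Wild type at 3 dpi and 39.2, 42.3 and 46.7 at 7 dpi (log2 change 1.19, SE 0.189, edgeR adjusted p 0.000212). In Mutant its 3 dpi libraries held 21.2, 17.4 and 17.2 CPM and its 7 dpi libraries 59.0, 55.0 and 47.0, again well apart (log2 change 1.53, SE 0.19, edgeR adjusted p 4.12e-05). Fibroblast markers moved the same way, with 8 of 9 higher at 7 dpi in each genotype, from a sum of 5472 to 7147 CPM to one of 15940 to 26480 CPM in Wild type. Skeletal muscle markers were higher too (6 of 12 in Wild type, 8 of 12 in Mutant). So were 1 of 6 endothelial markers in Wild type and 5 of 6 in Mutant, and 3 of 5 adipocyte markers in Mutant. Of 18 macrophage markers 3 were lower in Wild type and 8 in Mutant, with 0 higher in either. As a list they did not fall in Wild type, where their median log2 change was 0.06, against -0.60 in Mutant. Their Wild type sum ran from 4779 to 5615 CPM at 3 dpi and from 4676 to 5482 at 7 dpi. Schwann cell markers were lower in 6 of 12 in Wild type and 2 of 12 in Mutant, with 1 higher in each. In Wild type 2 of 6 neutrophil markers were lower. The part of these cell types in the changes of the proteases was not tested. Of 4 other cathepsins tested in Wild type Ctsw (3.06) and Ctso (1.14) also rose and Ctsa fell (-0.65), and of 13 delivery genes 4 fell and 0 rose, among them Psap (-1.29) and Gnptab (-0.87).

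Ctsl held 947, 979 and 863 CPM in Wild type at 3 dpi and 541, 498 and 614 at 7 dpi (log2 change -0.76, SE 0.189, edgeR adjusted p 0.00544). The days did not overlap. Ctsz held 543, 485 and 455 CPM and then 212, 273 and 281 (log2 change -0.95, SE 0.205, edgeR adjusted p 0.00193). Ctsd held 3328, 3367 and 3215 CPM and then 1230, 1542 and 2255 (log2 change -0.98, SE 0.326, edgeR adjusted p 0.0268). Its call was lost without any 1 of the 3 dpi libraries or without 7 dpi replicate 1 or 2 (adjusted p 0.0544 to 0.104). Ctsb, Lgmn and Ctss had log2 changes of -0.66, -0.46 and -0.49 without a call (edgeR adjusted p 0.083, 0.0972 and 0.239), though for each of them every 7 dpi library was below every 3 dpi library, where 28.4% of all genes were lower without overlap.

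In Mutant the falls of Ctsl (-0.70, SE 0.189, edgeR adjusted p 0.0101) and Ctsz (-0.61, SE 0.203, edgeR adjusted p 0.0315) were called, and both calls were lost without 3 dpi replicate 1 or 7 dpi replicate 1 or 3. Replicate 1 at 3 dpi was the highest of its group in all 10 genes, with 943 CPM of Ctss against 434 and 413 and a macrophage marker sum of 8070 CPM against 4041 and 4354. Replicate 2 at 7 dpi stood apart in most of these genes. It held 4320 CPM of Ctsb against 1774 and 2035, 3569 CPM of Ctsd against 1274 and 1412, and 669 CPM of Ctss against 319 and 284. Its macrophage markers summed to 5654 CPM, against 2395 and 2355. Without that library 8 of the 10 genes were called, the same 2 higher and 6 lower (Ctsb, Ctsd, Ctsl, Ctss, Ctsz and Lgmn).

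The same library bears on the comparison of 14 with 7 dpi. In Mutant 3 genes were lower at 14 dpi, Ctsb (-1.03, SE 0.293, edgeR adjusted p 0.0262), Ctsd (-1.05, SE 0.326, edgeR adjusted p 0.0376) and Ctsz (-0.64, SE 0.204, edgeR adjusted p 0.0411), where 17.7% of all genes passed, 8.55% as higher and 9.16% as lower. Ctsb held 1289, 1212 and 1479 CPM at 14 dpi. Without 7 dpi replicate 2 the count was 0, with log2 changes of -0.54, -0.44 and -0.37. It was also 0 without 14 dpi replicate 1 or 2, or with the compared groups fitted alone. Most Mutant libraries at 14 dpi were rich in muscle RNA, so a fit without such libraries cannot decide these calls. With the replicate number as a block the count was 1, Ctsb. In Wild type 0 genes passed edgeR's test (7.41% of all genes did, 2.52% higher and 4.9% lower). An unadjusted p under 0.05 was held by 1 of the 10 and by 5112 of all 15852 genes. DESeq2 called 1 of the 10, Ctsc, and 2425 of all genes. Without Wild type 7 dpi replicate 1 or 14 dpi replicate 1 edgeR called Ctsc too. All 10 Wild type values were negative, from -0.56 for Ctsb to -0.02 for Ctsl. Skeletal muscle markers were higher at 14 dpi in 1 of 12 in Wild type and 5 of 12 in Mutant. Their median sums went from 7330 to 91130 CPM and from 1896 to 27250 CPM. In Mutant 3 of 6 neutrophil markers were higher and 3 of 6 endothelial ones lower. In each genotype 2 of 12 Schwann cell markers were lower and 0 of 18 macrophage markers passed. The part of these cell types was not tested.

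**Figure D5:**
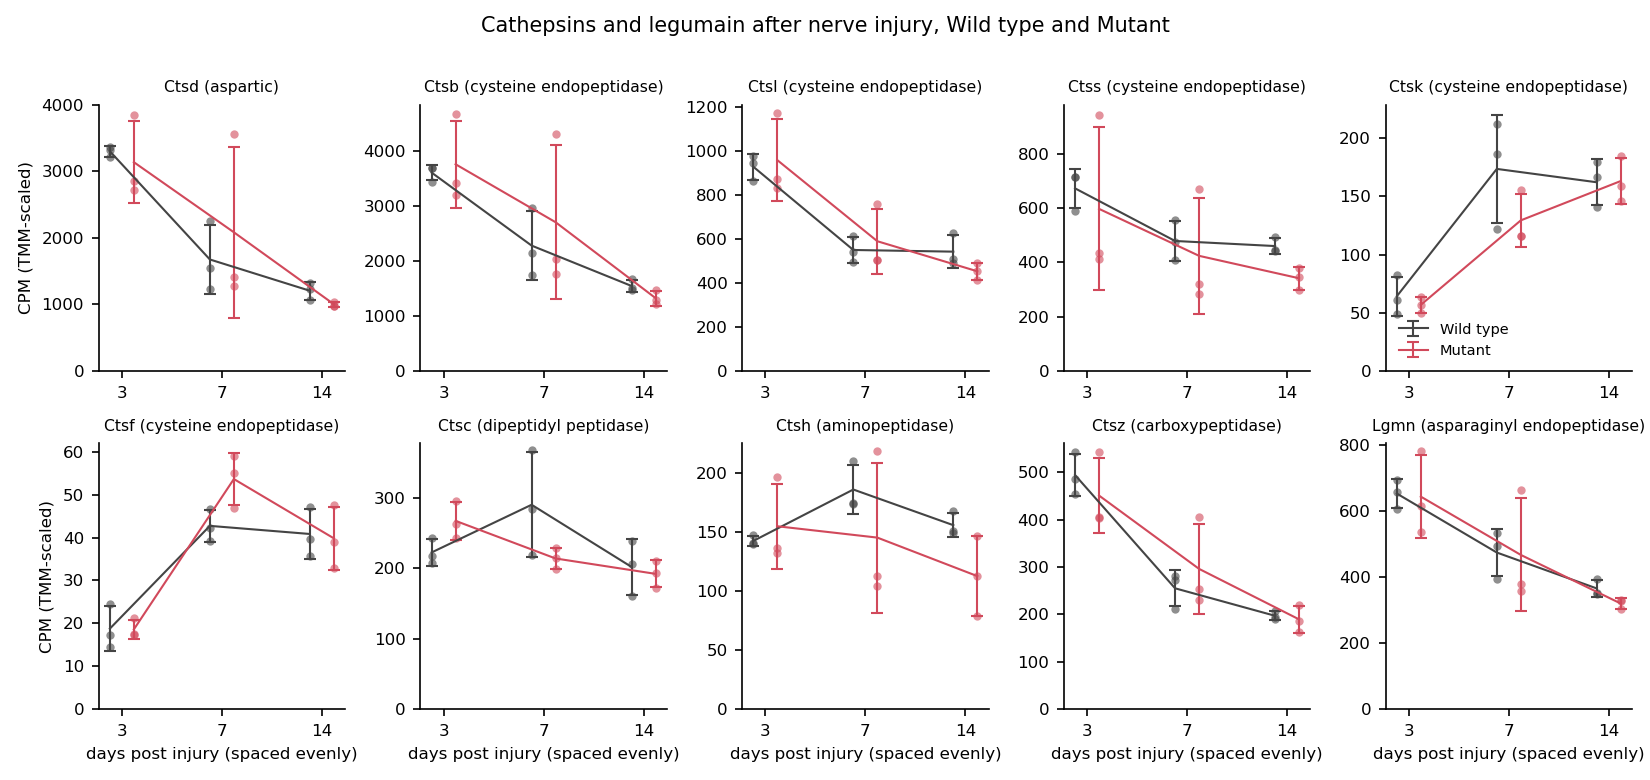
CPM of each gene (vertical axes from 0) at 3, 7 and 14 dpi in Wild type (grey) and Mutant (red) nerves; points are libraries, lines join group means and whiskers show the SD. Ctsk and Ctsf are lowest at 3 dpi, Ctsd, Ctsb, Ctsl, Ctsz, Ctss and Lgmn are highest there, and Mutant replicate 2 at 7 dpi lies far above its group in Ctsb at 4320 CPM.

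Mutant and Wild type did not differ in any of the 10 genes by edgeR's test on any day. At 3 dpi 0 were called (0% of all genes, 0 with an unadjusted p under 0.05), at 7 dpi 0 (0% of all genes, 1 with an unadjusted p under 0.05, Ctsc) and at 14 dpi 0 (8.29% of all genes, 7.05% higher and 1.24% lower, 0 with an unadjusted p under 0.05), and DESeq2 called 0 each time. Among all 15852 genes an unadjusted p under 0.05 was held by 299 at 3 dpi, 2094 at 7 dpi and 4536 at 14 dpi. The intervals were wide. For Ctss the 95% interval of the log2 change was -0.80 to 0.46 at 3 dpi, -0.80 to 0.45 at 7 dpi and -1.06 to 0.20 at 14 dpi. At 14 dpi Ctss held 442, 444 and 494 CPM in Wild type and 380, 346 and 297 in Mutant, which did not overlap (log2 change -0.43, edgeR adjusted p 0.387), as did not Ctsd, Ctsh, Ctsl and Lgmn, all lower in Mutant, where 11.1% of all genes were lower without overlap. The test of genotype by time called 0 of 10 genes by edgeR and 0 by DESeq2, where edgeR called 0.082% of all genes. In it 1 of the 10, and 2046 of all genes, had an unadjusted p under 0.05.

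Levels 3 days after injury differed between the injury table and the time course. Ctss held 57.5 to 268 CPM at 3 dpi in the former and 590 to 713 CPM in Wild type in the latter, and Ctsd 1030 to 1320 against 3215 to 3367 CPM. Schwann cell markers summed to 37690 to 92250 CPM in the injured nerves of the former and to 3647 to 4393 CPM in those of the latter. The tables were scaled separately and their labels differ in genotype, so this is no comparison.

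The 3 remaining comparisons involved Cre drivers. In Mitf against DhhCre at P21 edgeR called 0 of 10 genes, where 0.0143% of all genes passed, with 0 unadjusted p under 0.05 and 0 called by DESeq2. Their log2 changes lay between -0.11 for Ctsl and 0.24 for Ctsk. Ctsd held 547, 555, 601, 590 and 547 CPM in DhhCre and 543, 612, 607, 532 and 586 in Mitf, so that the groups overlapped and the 95% interval of the log2 change ran from -0.11 to 0.15. In Mitf against Egr2Cre at P12 the counts were again 0 by edgeR (0.0139% of all genes), 0 with an unadjusted p under 0.05 and 0 by DESeq2. Only Ctsb had groups that did not overlap, at 552, 573 and 572 CPM in Egr2Cre and 583, 594 and 576 in Mitf (log2 change 0.05), where 3.36% of all genes were higher without overlap. Ctss held 16.7, 37.3 and 20.7 CPM in Egr2Cre and 31.5, 27.5 and 33.9 in Mitf, the widest interval of the set (log2 change 0.32, 95% interval -0.22 to 0.86).

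In Egr2Cre Mitf against Mitf nerves, edgeR called 0 of 10 genes and 0% of all 15482 genes, and DESeq2 called 0 of the 10. All 10 values were positive, with a median of 0.285 beside -0.01 over all genes. An unadjusted p under 0.05 was held by 3 of them and by 671 of all genes. Ctsb held 1878, 1865 and 1540 CPM in Egr2Cre Mitf and 1509, 1077 and 1255 in Mitf, a log2 change of 0.46 (SE 0.199, edgeR adjusted p 0.846). Lgmn held 217, 223 and 210.5 CPM and 190, 161 and 173 (log2 change 0.31, SE 0.12, edgeR adjusted p 0.846), and Ctsf 62.8, 66.2 and 58.8 CPM and 54.7, 47.4 and 49.5 (log2 change 0.31, SE 0.107, edgeR adjusted p 0.846). These 3 genes did not overlap between the groups, where 5.21% of all genes were higher without overlap. Ctss held 402, 429 and 378.5 CPM in Egr2Cre Mitf and 454, 241 and 322 in Mitf, so that the groups overlapped (log2 change 0.25, 95% interval -0.18 to 0.69). Macrophage markers summed to 3063 to 3340 CPM in Egr2Cre Mitf (median 3266) and 2012 to 3137 CPM in Mitf (median 2597), with 0 of 18 called, and muscle markers to 21400 to 32960 and 18800 to 82620 CPM. Their part in the positive values was not tested.

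How the 10 genes vary together was described over all 82 libraries, as Pearson correlations of log2(CPM + 2) after subtracting the mean of each table. These libraries share groups, so the values describe the groups as much as the genes. Ctsb and Ctsd were the closest pair (r = 0.98), followed by Ctss and Lgmn (0.97) and Ctsb and Lgmn (0.96). Ctsf was negatively correlated with 8 of the other genes, most with Lgmn (-0.64), Ctsd (-0.62) and Ctsb (-0.61), while its r with Ctsk was 0.26. Among 10739 other genes, those most like Ctss were Cd84 (0.98), Trem2 (0.97) and Lyz2 (0.97), and those most like Lgmn were Ms4a6d (0.97), Fcer1g (0.96) and Tmem106a (0.96). Ctsb and Ctsd were both most like Hexa, the hexosaminidase alpha subunit of the lysosome (0.97 and 0.96), and Ctsz was most like Ctsa (0.94) and Grn (0.93). Ctsh was closest to C1qb (0.89), Ctsk to Fkbp7 (0.88) and Fap (0.85), Ctsf to Thra (0.88) and Neo1 (0.87), Ctsl to Mfsd1 (0.85) and Ctsc to Gusb, the lysosomal beta-glucuronidase (0.80).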

How the data were processed

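Gene tables of 82 mouse sciatic nerve libraries, 8 tables in all, were used. The authors deposited estimated counts for each gene; the submitters' processing notes name kallisto and mm10. The version and the annotation used with kallisto are not given in these sources. Totals ran from 15438783 to 34531474 estimated counts. No 2 libraries of a group agreed within sampling noise: among genes averaging 20 or more counts, the lowest chi-square was 9.376 per degree of freedom.

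Estimated counts were rounded and tested, table by table, with edgeR 4.0.16 (robust quasi-likelihood, two-sided; R 4.3.3, limma 3.58.1) after filterByExpr (minimum count 10) and TMM scaling, whose factors ran from 0.7187 to 1.257. All groups of a table were fitted together, and both Fig4 tables for the age difference. P-values were adjusted by Benjamini and Hochberg over all genes tested, with a threshold of 0.05. SE is the log2 change divided by the root of the F statistic, and the 95% interval is 1.96 SE on either side. CPM used TMM-scaled library sizes, a choice made after muscle RNA was seen to take a large share of some libraries. A library was called rich in muscle RNA above 10000 CPM of muscle markers, here without the TMM scaling.

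Members, gene lists and tests were chosen with earlier results of these data known. All 10 members were named, up to 4 called genes of each pathway list by smallest p, the MiT/TFE factors, and the 3 genes most like each member, among genes with a mean of at least 1 CPM in every table. Alternatives were RLE scaling, DESeq2 1.42.0, no filter, the compared groups alone, the replicate number as a block, a muscle covariate, and each library left out. The tests were tried on simulated data first. Same-numbered libraries deviated together in every pair of Mitf and DhhCre at P21 (r 0.111 to 0.358) and of Egr2Cre Mitf and Mitf (r 0.211 to 0.482). Of these pairs only 2 of 5 and 2 of 3 correlated best within their number. The numbers come from the labels, and the block changed no member's call in either.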

Additional observations from a re-analysis of the deposited data

Results flagged for a closer look

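Single libraries stood apart from the rest of their group in 9 of 80 tests of a member in a group of 4 to 6 libraries, by Dixon's gap test at the 95% level, where chance gives about 1 in 20. The tests share libraries between genes that vary together, so they are not independent and the count cannot show an excess over chance. Of these 9, 3 lay in the Ndrg1 group. Replicate 3 of Ndrg1 held 145 CPM of Ctsc, the activator of granule proteases, against 107 to 113, and 20.7 CPM of Ctsf against 31.0 to 34.2. Replicate 2 of Ndrg1 held 359 CPM of Ctss against 278 to 302. In Mitf-Ndrg1, replicate 1 held 1870 CPM of Ctsb against 2150 to 2240.

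In the Mitf group of the same table, replicate 1 held 81.9 CPM of Ctsc against 75.8 to 77.4 and 140 CPM of Ctsl against 168 to 183. In Control, replicate 1 held 69.4 CPM of Ctsf against 54.4 to 59.1. Outside that table, replicate 2 of Mitf at 3 dpi held 1320 CPM of Ctsd against 1030 to 1070, and replicate 3 of DhhCre at P21 held 18.9 CPM of Ctss against 26.4 to 28.8. The calls in Ndrg1 against Control and in Mitf-Ndrg1 against Mitf were 10 of 10 without each library in turn.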

How the results depend on the processing

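Of 647 log2 changes of called members recomputed under an alternative, 593 kept their direction and call, 54 kept the direction without the call and 0 reversed; all 360 of the 2 contrasts of the Ndrg1 label kept both. The number of members called in the Fig4 age difference, 0, became 3 with DESeq2, 1 with no filter, and 2 with the muscle covariate or without the libraries rich in muscle RNA. DESeq2 gave 1 instead of 0 for Wild type 14 against 7 dpi, 2 instead of 0 for Mitf-Ndrg1 against Ndrg1 and 1 instead of 0 for the Mitf by Ndrg1 interaction. For Mutant 14 against 7 dpi the count of 3 became 0 with the compared groups alone. With 1 library left out in turn, the members called ranged from 0 to 1 in the Fig4 age difference, 3 to 9 for the injury, 4 to 6 in Wild type and 2 to 8 in Mutant for 7 against 3 dpi, 0 to 1 in Wild type and 0 to 4 in Mutant for 14 against 7 dpi, 0 to 1 for Mitf-Ndrg1 against Ndrg1, and 5 to 6 for Fig4 at P12. The cause was not tested.

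With the replicate block the injury count went from 5 to 3 and that of Mutant 14 against 7 dpi from 3 to 1 (Ctsb), and no other count of members moved. In these 2 comparisons the libraries share only a number (r -0.000809 to 0.203 and -0.0714 to 0.0114), and 3 of 4 injury pairs, and 0 of 3 Mutant pairs, correlated best within their number.

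Counts over all genes moved by more than 1.5 times. They ranged from 105 to 1131 (435 as reported) for Fig4 at P12, 0 to 13 (1) at P4, 2 to 144 (23) for their difference, 2 to 10 (2) for DhhCre, 0 to 12 (2) for Egr2Cre, 1150 to 4341 (3365) for the injury, 70 to 2425 (1175) in Wild type and 88 to 3778 (2807) in Mutant for 14 against 7 dpi, 0 to 603 (0) and 0 to 4535 (1314) for Mutant against Wild type at 7 and 14 dpi, 1 to 1372 (13) for genotype by time, 0 to 7 (0) for Egr2Cre Mitf, 1 to 14 (1) for Mitf against Control, 31 to 750 (234) for Mitf-Ndrg1 against Ndrg1 and 24 to 387 (62) for the interaction. Leaving out libraries rich in muscle RNA could not be run where a table had none or held nothing else. In the time course it took out most 14 dpi libraries of each genotype, so its counts there cannot be weighed. Groups of 3 libraries limit what the time course and Fig4 tables can show, and the intervals for the lower genes are wide.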
